A study of Rattus norvegicus with 6 samples.

Results

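Glutathione S-transferases are the enzymes that join glutathione to reactive, electrophilic molecules, and 10 of their genes are described here in rat liver: Gstp1 of the pi class, Gsta1, Gsta2, Gsta3 and Gsta4 of the alpha class, Gstm1, Gstm2 and Gstm3 of the mu class, Gstt1 of the theta class and the microsomal transferase Mgst1. All 10 had a probe, out of 15284 named genes with one on the array, and together they had 17 probes. The members were chosen on the NTA against vehicle contrast itself, with Gstp1 at their head, so their values in that contrast are a description and carry no test. Each probe was assigned by its RefSeq accession, without regard to its value. One group of 3 male Sprague-Dawley rats (Crl:CD(SD)), 5 weeks old when bought, received, at 1000 mg/kg/day, nitrilotriacetic acid as its trisodium monohydrate (NTA, a chelating agent for zinc, iron and other metals). The other group of 3 such rats was given the vehicle alone. The labels disagree on the vehicle, named once as purified water and once as corn oil, and on the length of treatment, given as 28 days in the series design and as 9 weeks in the protocol. Liver RNA from each rat was hybridised to 1 Agilent one-colour expression array, so n = 3 arrays in each group.

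In adult rat liver the alpha and mu class transferases and Mgst1 are abundant hepatocyte proteins, while the pi class enzyme is scarce in hepatocytes and found mainly in the bile duct epithelium. Gstp1 is known in this species as the placental form of the enzyme and as a marker of preneoplastic hepatocyte foci. Many of the genes respond to electrophiles through the transcription factor NRF2 (Nfe2l2), which is held back by Keap1 and binds, with a small Maf protein, to the antioxidant response element, whose core reads TGACNNNGC.

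Values are log2 processed signals relative to the same array's 75th percentile, so 0 is that percentile and 1 unit is a 2-fold step, and a brightness is compared only within 1 probe. The 6 arrays were alike in depth of signal, with 62.4% to 64.5% of probes well above background. Of 38168 probes tested in limma, 13 passed a Benjamini-Hochberg adjusted p of 0.05, all of them higher in NTA livers, and 2816 had an unadjusted p under 0.05. The median difference over all probes was -0.02. All NTA arrays were on 1 slide, vehicle replicates 1 and 2 on another and vehicle replicate 3 on one of its own, scanned on another day, so an effect of slide cannot be told apart from one of treatment. Hepatocyte markers such as Alb were bright in both groups, with a list median of 8.21 to 8.31 on the NTA arrays and 8.18 to 8.54 on the vehicle arrays.

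Gstp1 was far brighter in the NTA livers at each of its 3 probes. At the brightest, A_43_P13342, the log2 signal was 5.93, 6.08 and 5.79 in NTA replicates 1 to 3, against 3.00, 3.21 and 3.48 in vehicle replicates 1 to 3. The lowest NTA liver lay more than 2 log2 units above the highest vehicle liver. The means were 5.94 ± 0.15 in NTA livers and 3.23 ± 0.24 in vehicle livers (SD, n = 3 each), a difference of 2.70 (SE 0.16) or 6.51-fold. Probe A_44_P182221 read 3.63, 3.67 and 3.46 in NTA livers, against 0.73, 0.70 and 1.03 in vehicle livers, a difference of 2.77 (SE 0.13) or 6.81-fold. Probe A_64_P170600 read 4.12, 4.23 and 3.98 in NTA livers, against 1.37, 1.45 and 1.47 in vehicle livers, a difference of 2.68 (SE 0.11) or 6.42-fold. The 3 estimates ran from 2.68 to 2.77, and NTA replicate 3 was the lowest NTA liver at each. Leaving out 1 rat at a time kept the difference at A_43_P13342 between 2.59, without vehicle replicate 1, and 2.83, without vehicle replicate 3. Without vehicle replicate 3, no array came from the second scan day or that rat's slide.

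Gstp1 was the source of every member probe past the threshold: 3 of the 17 probes, and 1 of the 10 genes by its brightest probe, beside 0.0341% of all probes tested. Because the members were chosen on this contrast, nothing is read from that count. Without NTA replicate 1 or without NTA replicate 2 the brightest Gstp1 probe no longer passed, leaving 0 of the 10 genes, while 2 member probes did. Bulk RNA does not tell more cells holding Gstp1 from more Gstp1 RNA per cell. Of 20 bile duct and progenitor markers, 18 had a probe, 14 were tested and 4, Sctr among them, were not above background in either group. The list's median signal was -1.99 to -1.67 on the NTA arrays and -2.06 to -1.43 on the vehicle arrays, so the groups overlapped. Of the 14 markers tested, 10 were above 0, beside 48.7% of all genes, with a median difference of 0.07. The transcription factor Onecut1 and the water channel Aqp1 had differences of 1.16 (SE 0.52) and 0.97 (SE 0.43). Spp1 and Epcam had 0.58 (SE 0.59) and 0.26 (SE 0.21). Each of these genes overlapped between the groups. The keratin Krt19 read -2.54, -1.83 and -2.01 in NTA livers, against -2.49, -2.37 and -1.91 in vehicle livers. Krt7 read -3.21, -3.10 and -3.44 in NTA livers, against -2.97, -2.82 and -3.21 in vehicle livers. Both keratins overlapped between the groups, and the part of bile duct cells in the Gstp1 difference was not tested. Krt23, the 1 marker of the list with an unadjusted p under 0.05, was well above background on the 3 NTA arrays and on 0 of the 3 vehicle arrays.

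**Figure D1:**
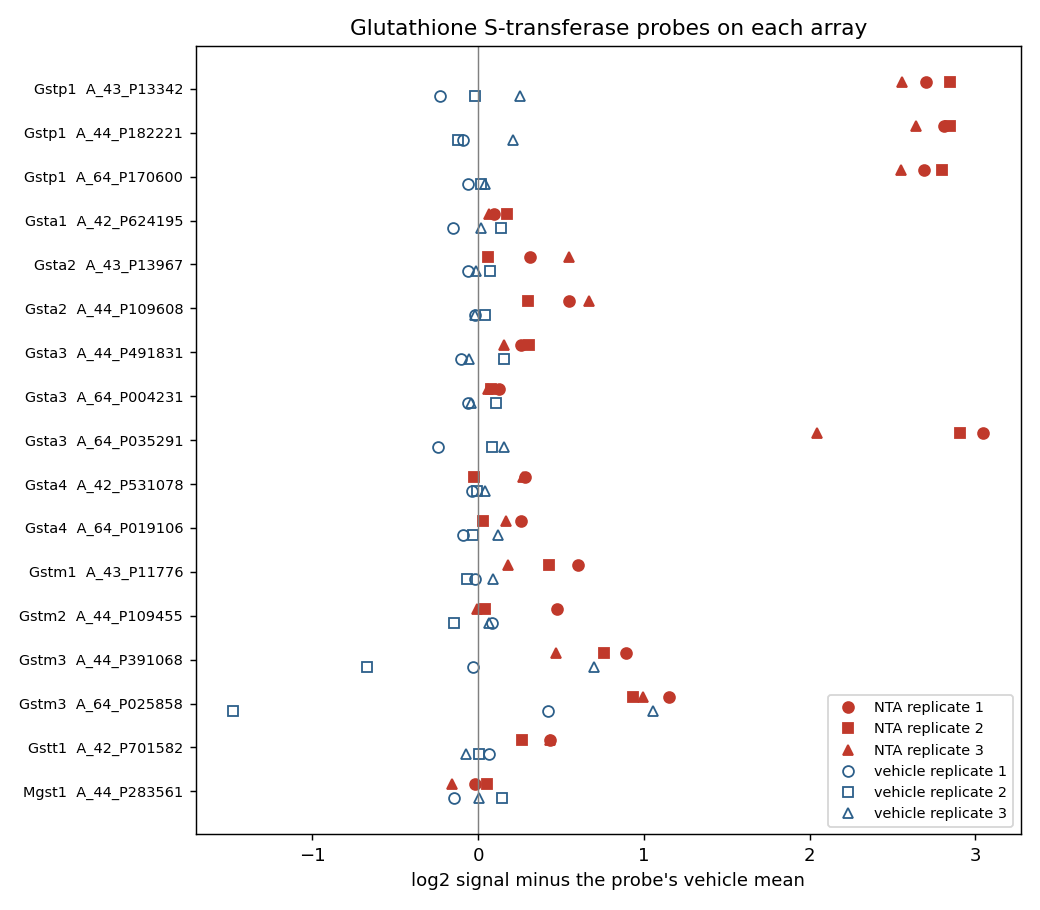
Signal of each of the 17 probes on each array, as log2 signal minus the probe's own vehicle mean (x axis), with NTA livers as filled red symbols and vehicle livers as open blue symbols, 1 symbol shape per replicate number. The 3 Gstp1 probes and 1 of the 3 Gsta3 probes stand above 2 in all 3 NTA livers, while the other probes lie closer to 0, with the vehicle livers spread widest at the Gstm3 probes.

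The Gstp1 promoter is shown because Gstp1 had the largest difference of the family and its promoter holds a match to the TGACNNNGC letters. RefSeq (GRCr8) gives the 250 bases before its start, with the match to TGACNNNGC in capitals, on the minus strand at chr1:210769706-210769955:
Gstp1: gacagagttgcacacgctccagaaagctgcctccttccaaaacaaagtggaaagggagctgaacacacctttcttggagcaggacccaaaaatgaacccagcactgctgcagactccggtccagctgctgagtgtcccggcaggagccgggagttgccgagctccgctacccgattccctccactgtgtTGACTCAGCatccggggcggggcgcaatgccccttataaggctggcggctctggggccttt
The match starts 61 bases before the start site, position -61. It also contains TGACTCA, a match to the AP-1 motif TGANTCA, so the 2 matches overlap and are not separate. The enhancer GPEI, known from work on rat liver foci, lies further upstream and is outside this window. Of the members, 9 had a promoter entry, with 10 windows of 300 bases (250 before and 50 after the start), since Gsta3 has 2 starts. TGACNNNGC occurred, on either strand, in 4 of the 9 genes and in 12.1% of 33469 RefSeq promoters of the same length. TGANTCA occurred in Gstp1 and Mgst1, 2 of the 9 genes, and in 7.3% of all promoters. The TGANTCA match of Mgst1 is at -140. Among the 4 genes with TGACNNNGC, the difference by brightest probe was 2.70 for Gstp1, 0.12 for Gsta1, 0.30 for Gsta2 and 0.08 for Gsta3. Among the other 5 genes it was -0.04 for Mgst1, 0.15 for Gsta4, 0.17 for Gstm2, 0.41 for Gstm1 and 0.71 for Gstm3. By brightest probe, Gsta1, Gsta2 and Gsta3 lay within the range of the genes without the letters in these windows. Gsta3 probe A_64_P035291, at 2.67, lay above that range. Sequence outside the windows was not searched for any member. Whether the letters bear on the differences was not tested. CCAAT occurred in 5 of the 9 genes (Gsta1, Gsta2, Gsta4, Gstm1 and Gstm2) and in 37.5% of all promoters. A match is a run of letters and says nothing of whether a factor binds there.

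Gsta3, an alpha class transferase known in rats as the Yc2 subunit and for conjugating the aflatoxin B1 epoxide, had 3 probes that did not read alike. Probe A_64_P035291 read 3.89, 3.75 and 2.89 in NTA livers, against 0.60, 0.93 and 1.00 in vehicle livers. Each NTA liver was above each vehicle liver, and NTA replicate 3 was lower than the other NTA livers. The means were 3.51 ± 0.54 in NTA livers and 0.84 ± 0.22 in vehicle livers (SD, n = 3 each), a difference of 2.67 (SE 0.28) or 6.35-fold, close to the size seen for Gstp1. Probe A_64_P004231, assigned to the same RefSeq accession, read 6.90, 6.85 and 6.83 in NTA livers, against 6.71, 6.88 and 6.73 in vehicle livers, a difference of 0.08 (SE 0.10). Probe A_44_P491831, assigned to another Gsta3 accession, read 6.56, 6.61 and 6.46 in NTA livers, against 6.20, 6.46 and 6.25 in vehicle livers, a difference of 0.24 (SE 0.11). Both of these sets of arrays overlapped between the groups. A rule that takes each gene by its brightest probe uses A_64_P004231 for Gsta3 and so gives 0.08 where another probe of the gene gives 2.67. Leaving out 1 rat kept the difference at A_64_P035291 between 2.48, without NTA replicate 1, and 2.98, without NTA replicate 3. It did not pass the threshold with all 6 arrays, but did under normexp background correction, where it was 2.66, and without NTA replicate 3. Probe sequences were not among the files used here, so what each probe can bind beside Gsta3 was not tested.

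**Figure D2:**
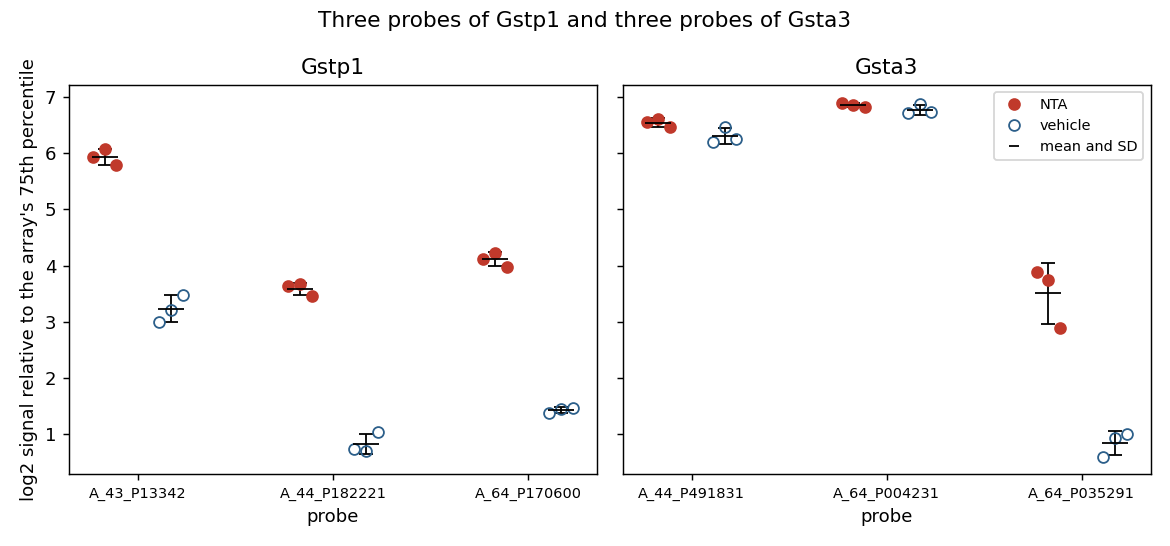
Signal on the log2 scale, with 0 at the array's 75th percentile (y axis), for the 3 probes of Gstp1 and the 3 probes of Gsta3 (x axis), with NTA livers (filled red) left of vehicle livers (open blue), and the mean with its SD in black. All 3 Gstp1 probes show a gap between the groups, and of the Gsta3 probes A_64_P035291 alone does so.

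Gsta3 and Gsta1 lie next to each other on chromosome 9, and RefSeq lists Gsta5 and Yc2 among the older names of Gsta3, and Gsta3, Gsta5 and Yc1 among those of Gsta1. The stretches around their TGACNNNGC matches are shown because these neighbouring genes are nearly the same sequence there. By brightest probe their signal differences were 0.08 for Gsta3 and 0.12 for Gsta1. The Gsta3 stretch is on the plus strand at chr9:31154960-31154989, with its match at -17, and the Gsta1 stretch is on the minus strand at chr9:31216485-31216514, with its match at +31, after the start:
Gsta3: gcaactcaggcaTGACTTCGCattttttcc
Gsta1: gcaactcaggcaTGACTTTGCatttttctt
The capitals mark the match, and 26 of the 30 bases are identical. Gsta2 had its match on the opposite strand at +37.

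Gsta1, the Yc1 subunit of the alpha class and a major hepatocyte transferase, read 8.37, 8.45 and 8.34 in NTA livers, against 8.12, 8.41 and 8.29 in vehicle livers. The groups overlapped, with a difference of 0.12 (SE 0.11) that became 0.26 under normexp background correction. Gsta2, the alpha class subunit known in rats as Ya, read 8.04, 7.79 and 8.28 in NTA livers, against 7.67, 7.80 and 7.72 in vehicle livers at probe A_43_P13967, a difference of 0.30 (SE 0.15). Its probe A_44_P109608 read 7.93, 7.68 and 8.05 in NTA livers, against 7.36, 7.42 and 7.36 in vehicle livers, a difference of 0.50 (SE 0.12) or 1.42-fold. At the second probe each NTA liver was above each vehicle liver, while at the first, NTA replicate 2 was just below vehicle replicate 2. NTA replicate 2 was the lowest NTA liver and NTA replicate 3 the highest at both Gsta2 probes, which is not the order seen at Gstp1. Gsta4, which in rats conjugates the lipid peroxidation product 4-hydroxynonenal, read 4.40, 4.09 and 4.39 in NTA livers, against 4.08, 4.11 and 4.16 in vehicle livers at A_42_P531078. Its other probe, A_64_P019106, read 6.50, 6.27 and 6.41 in NTA livers, against 6.15, 6.21 and 6.36 in vehicle livers. Gsta4 overlapped between the groups at both probes, with differences of 0.18 and 0.15 (SE 0.12 each).

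The mu class genes Gstm1, Gstm2 and Gstm3 lie side by side on chromosome 2. Gstm1, a mu class transferase abundant in rat liver, read 7.35, 7.18 and 6.93 in NTA livers, against 6.73, 6.68 and 6.84 in vehicle livers. All NTA livers were above all vehicle livers, with means of 7.15 ± 0.21 in NTA livers and 6.75 ± 0.08 in vehicle livers (SD, n = 3 each), a difference of 0.41 (SE 0.14) or 1.33-fold. Gstm2 read 5.89, 5.46 and 5.41 in NTA livers, against 5.50, 5.27 and 5.48 in vehicle livers, a difference of 0.17 (SE 0.16). NTA replicate 1 stood alone at the top, and without it the Gstm2 difference was 0.02. Under normexp background correction it was 0.39. Gstm3 read -0.24, -0.37 and -0.66 in NTA livers, against -1.16, -1.80 and -0.43 in vehicle livers at A_44_P391068, a difference of 0.71 (SE 0.34). Its probe A_64_P025858 read -0.27, -0.49 and -0.43 in NTA livers, against -1.0, -2.90 and -0.37 in vehicle livers, a difference of 1.03 (SE 0.60). Vehicle replicate 2 was the lowest at both Gstm3 probes, and without it the differences were 0.38 and 0.29. The vehicle SDs of 0.68 and 1.32 were the widest of any member probe, and the groups overlapped at both.

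Gstt1, the theta class transferase that acts on small halogenated molecules such as dichloromethane, read 2.71, 2.54 and 2.71 in NTA livers, against 2.34, 2.28 and 2.20 in vehicle livers. All NTA livers were above all vehicle livers, with means of 2.65 ± 0.10 in NTA livers and 2.27 ± 0.07 in vehicle livers (SD, n = 3 each), a difference of 0.38 (SE 0.11) or 1.30-fold. Mgst1, the membrane-bound transferase and peroxidase of the endoplasmic reticulum and outer mitochondrial membrane, read 7.66, 7.73 and 7.52 in NTA livers, against 7.53, 7.82 and 7.68 in vehicle livers. Mgst1 was the 1 member with a difference below 0, at -0.04 (SE 0.12), and its groups overlapped.

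Across the family, 16 of the 17 probes and 9 of the 10 genes by their brightest probe had a difference above 0, beside 48.7% of the 11251 genes tested. The median over the 10 genes was 0.23, beside -0.01 over all genes. Apart from Gstp1, the genes lay between -0.04 for Mgst1 and 0.71 for Gstm3 by their brightest probe. All NTA livers were above all vehicle livers at 7 of the 17 probes (3 of Gstp1, 1 each of Gsta2, Gsta3, Gstm1 and Gstt1), beside 5.54% of all probes tested, and at 0 of the 17 they were all below. By brightest probe this held for 3 of the 10 genes (Gstp1, Gstm1 and Gstt1), beside 7.09% of all genes. These counts come from the contrast the members were chosen on and are given as a description. At those 7 probes NTA replicate 3 was the lowest NTA liver in 5 (3 of Gstp1, 1 each of Gsta3 and Gstm1). NTA replicate 2 was the lowest in 2 (1 each of Gsta2 and Gstt1), and NTA replicate 1 in 0. The 3 Gstp1 probes read the same gene and are not separate observations. Every one of the 17 probes was well above background on all 6 arrays, and 0 of their spots were saturated.

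The other transferases and their relatives were on both sides of 0. Of 24 such genes listed, 20 had a probe and 19 were tested, and Gstt4 was not above background. Of the 19, 0 passed the adjusted threshold in limma, with 2 higher and 1 lower at an unadjusted p under 0.05, beside 4.5% higher and 3.08% lower of all genes. Their median difference was -0.02, and 9 of 19 were above 0. Both alpha class relatives were above the vehicle livers in every NTA liver: Gsta5, which lies between Gsta4 and Gsta2 on chromosome 8, read 8.59, 8.37 and 8.59 in NTA livers, against 8.09, 8.23 and 8.22 in vehicle livers. Its difference was 0.34 (SE 0.11, limma Benjamini-Hochberg adjusted p = 0.59). Gsta6, the neighbour of Gsta1, read 2.61, 2.62 and 2.58 in NTA livers, against 2.32, 2.34 and 2.44 in vehicle livers, a difference of 0.24 (SE 0.10, limma Benjamini-Hochberg adjusted p = 0.67). The 1 gene with all NTA livers below all vehicle livers, as were 6.81% of all genes, was the mu class Gstm5. It read -3.65, -3.62 and -3.76 in NTA livers, against -3.36, -3.06 and -2.74 in vehicle livers, a difference of -0.62 (SE 0.17, limma Benjamini-Hochberg adjusted p = 0.54). None of these passed the threshold.

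The mu class genes Gstm4, Gstm6, Gstm6l and Gstm7 had differences of -0.02 to 0.21, and their groups overlapped at each tested probe. Gsto1 and Gsto2 of the omega class had 0.10 and 0.07, Gstz1 of the zeta class, a step in tyrosine breakdown, had -0.15, Gstk1 of the mitochondrial kappa class had -0.08, and Gstt2 had 0.23 at both of its probes. The membrane-bound Mgst2 had 0.34, and Mgst3 had -0.21, -0.17 and -0.20 at its 3 probes. Ltc4s, which makes leukotriene C4, spread more than any other relative, with -1.60, -3.27 and 0.44 in NTA livers, against -0.61, 0.57 and 0.88 in vehicle livers at its brighter probe. Its difference was -1.76 (SE 0.91), and the groups overlapped. Gstp3, the gene next to Gstp1 in RefSeq, was looked up after the values were seen. It read 6.36, 7.57 and 6.96 in NTA livers, against 6.74, 7.88 and 7.14 in vehicle livers. Its difference was -0.29 (SE 0.39, limma Benjamini-Hochberg adjusted p = 0.90), with overlap between the groups.

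**Figure D3:**
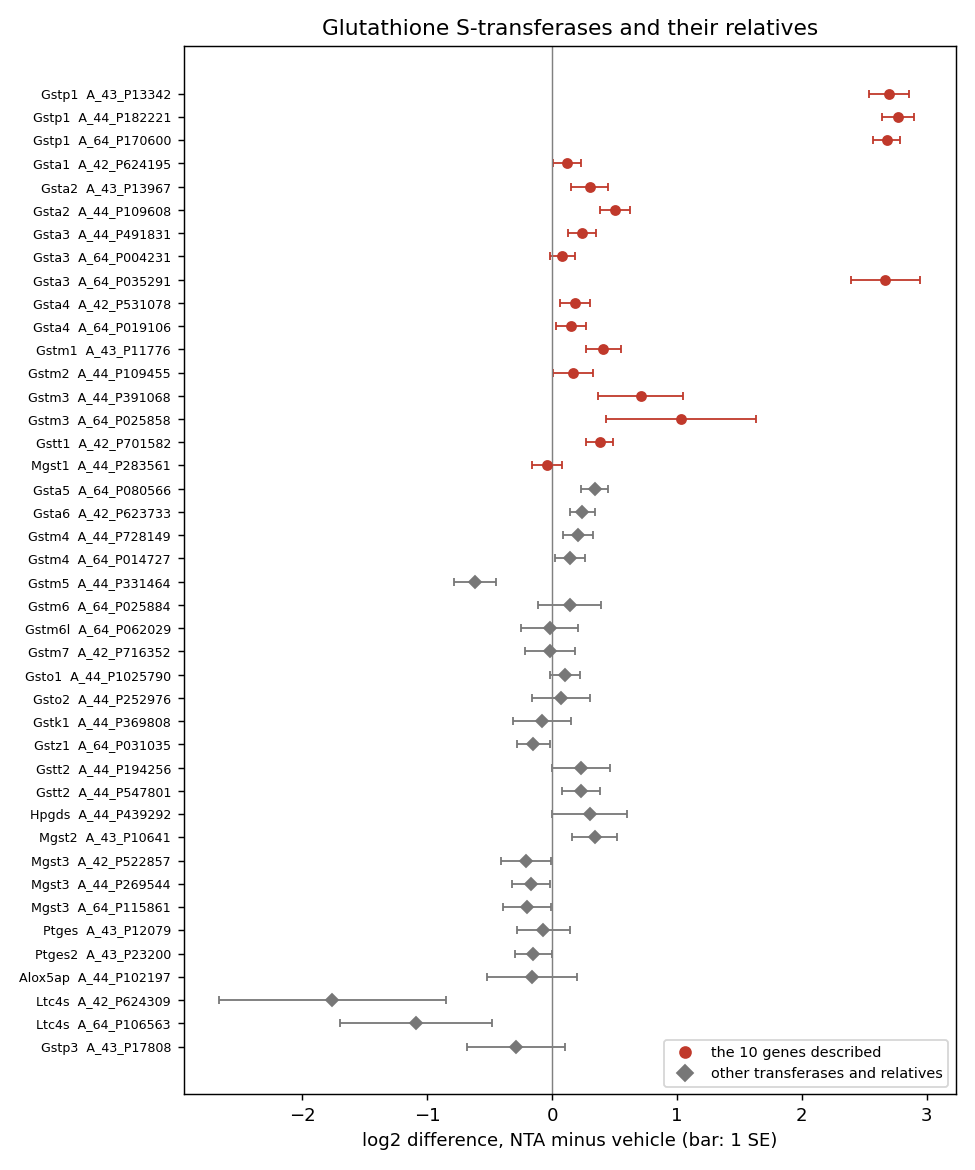
log2 difference of NTA minus vehicle livers (x axis) with 1 SE from the limma fit, for each tested probe (y axis) of the 10 genes (red circles) and of the other transferases and relatives (grey diamonds). The 3 Gstp1 probes and Gsta3 probe A_64_P035291 lie between 2.67 and 2.77, the other red points between -0.04 and 1.03, and the grey points between -1.76 and 0.34.

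The genes whose signal ran most like that of Gstp1 over the 6 arrays were ranked by root mean square distance between values centred on each gene's own mean, among 10837 named genes above background on all arrays and outside the family. The nearest was Fabp4, which binds fatty acids in adipocytes and macrophages, at a distance of 0.27. It read -1.64, -2.00 and -2.41 in NTA livers, against -4.91, -4.28 and -4.59 in vehicle livers, a difference of 2.58 (SE 0.24). Of 10 adipocyte markers with a probe, 8 were above background on all 6 arrays, Fabp4 among them, with 4 above 0 and a list median of -0.07, and Adipoq and Lep were not above background. Next came the actin-associated Pdlim4 at 0.44, with a difference of 2.10, the tubulin Tubb3 at 0.47, with 2.01, the lipoprotein-associated phospholipase Pla2g7 at 0.54, with 2.03, and the retinoic acid hydroxylase Cyp26b1 at 0.55, with 2.24. All 5 were higher in every NTA liver than in every vehicle liver, which the measure selects for. All 5 are dimmer than their array's 75th percentile. Under normexp background correction their differences were 1.09, 1.28, 1.17, 1.40 and 1.48, while that of Gstp1 was 2.72. The offset of 50 in that setting by construction shrinks the differences of dim probes more than those of bright ones. By the same measure Gsta3 probe A_64_P035291 lay 0.26 from the brightest Gstp1 probe, nearer than Fabp4. The other Gstp1 probes lay 0.09 and 0.12 from it.

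The enzymes that supply glutathione had differences on both sides of 0. Of 27 genes tested, 0 passed the threshold in limma, 2 were higher and 2 lower at an unadjusted p under 0.05, beside 4.5% and 3.08% of all genes, 14 were above 0, beside 48.7%, and the median difference was 0.01. Gclc, the catalytic subunit of the rate-limiting ligase of glutathione synthesis, read 4.85, 4.85 and 4.33 in NTA livers, against 4.56, 4.64 and 4.83 in vehicle livers, a difference that rounds to 0. The cystine carrier gene Slc7a11 was not above background. Cth, which makes cysteine from cystathionine, had a difference of -0.75 (SE 0.20, limma Benjamini-Hochberg adjusted p = 0.53). Anpep, a peptidase that splits the dipeptide left from glutathione, had -0.47 (SE 0.13), and the glutathione synthetase Gss had -0.36 (SE 0.16). Cth, Anpep and Gss each had no overlap between the groups, and none passed the threshold.

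Genes for the export of glutathione conjugates and the mercapturate pathway included 4 pumps that were higher before adjustment. Of 16 genes tested, 0 passed the threshold in limma, 4 were higher and 0 lower at an unadjusted p under 0.05, beside 4.5% and 3.08% of all genes, 12 were above 0, beside 48.7%, and the median was 0.11. Those 4 were all ABC transporters of the C family. Abcc3, a pump of the basolateral membrane, read -1.22, -1.34 and -2.66 in NTA livers, against -2.95, -3.09 and -3.25 in vehicle livers, a difference of 1.36 (SE 0.38, limma Benjamini-Hochberg adjusted p = 0.54). NTA replicate 3, again the lowest NTA liver, was close to the vehicle livers. Abcc1, Abcc4 and Abcc5 had differences of 0.41, 0.45 and 0.41 (SE 0.11, 0.17 and 0.11), though 1 of the 4 Abcc4 probes gave -0.08. Abcc2, the pump of the bile canaliculus, read 5.86, 5.92 and 6.06 in NTA livers, against 5.94, 6.19 and 5.78 in vehicle livers, and overlapped.

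The known regulators of these genes were measured as RNA. Of 24 tested, 0 passed the threshold in limma, 1 was higher and 0 lower at an unadjusted p under 0.05, beside 4.5% and 3.08% of all genes, 16 were above 0, beside 48.7%, and the median was 0.07. Nfe2l2 read 3.72, 4.14 and 3.4 in NTA livers, against 4.08, 4.12 and 4.05 in vehicle livers, and Keap1 read 0.97, 0.96 and 0.87 in NTA livers, against 1.02, 0.76 and 0.76 in vehicle livers. Both overlapped. These arrays measure RNA, and NRF2 is known to be controlled largely through its protein. The gene with the unadjusted p under 0.05 was Nr1i3, the xenobiotic receptor CAR, 1 gene of 24 being near the share over all genes. Its difference was 0.76 (SE 0.28) at the brightest probe and 0.92, 0.90 and 1.02 at its other probes. The groups overlapped at the brightest, with 3.16, 3.06 and 3.56 in NTA livers, against 2.07, 2.32 and 3.10 in vehicle livers.

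Known NRF2 targets outside the family included aldo-keto reductases with large differences. Of 23 tested, 0 passed the threshold in limma, 5 were higher and 0 lower at an unadjusted p under 0.05, beside 4.5% and 3.08% of all genes, 17 were above 0, beside 48.7%, and the median was 0.13. Akr1b8, an aldose reductase relative, read 2.25, 2.15 and 2.27 in NTA livers, against -1.90, 0.44 and -2.20 in vehicle livers. Its difference was 3.44 (SE 0.66, limma Benjamini-Hochberg adjusted p = 0.43). It passed the threshold without vehicle replicate 2, the vehicle liver nearest the NTA livers. Akr7a3, which in rats reduces aflatoxin B1 dialdehyde, read 6.19, 6.47 and 5.43 in NTA livers, against 4.42, 4.27 and 4.61 in vehicle livers, a difference of 1.60 (SE 0.27, limma Benjamini-Hochberg adjusted p = 0.38). Akr1b10, 1 of those 5, was well above background on the 3 NTA arrays and on 0 of the 3 vehicle arrays, which leaves a bound only. It was kept for testing through the NTA arrays alone, so nothing is read from its place in the count. Its difference of 2.65 became 0.39 under normexp background correction. Other textbook targets did not separate the groups: Nqo1 read 1.37, -0.52 and 1.63 in NTA livers, against 0.81, 1.45 and 0.79 in vehicle livers, and Hmox1 read 1.87, 1.98 and 2.10 in NTA livers, against 2.11, 1.97 and 1.54 in vehicle livers.

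Genes known as markers of rat liver foci, a list that shares Akr1b8, Akr1b10, Akr7a3 and Abcc3, among others, with the targets above, were mixed as well. Of 19 tested, 0 passed the threshold in limma, 5 were higher and 0 lower at an unadjusted p under 0.05, beside 4.5% and 3.08% of all genes, 13 were above 0, beside 48.7%, and the median was 0.18. Akr1b8, Akr1b10, Akr7a3 and Abcc3 were among those 5, though Akr1b10 was kept for testing through the NTA arrays alone and gives a bound only. Ggt1, the gamma-glutamyltransferase used with Gstp1 to stain foci, read -2.98, -3.04 and -3.21 in NTA livers, against -4.79, -3.74 and -2.97 in vehicle livers. Vehicle replicate 3 was at the level of the NTA livers, so the groups overlapped. The fetal protein gene Afp read 2.60, 3.80 and 3.36 in NTA livers, against 2.87, 3.98 and 3.62 in vehicle livers, and overlapped too.

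**Figure D4:**
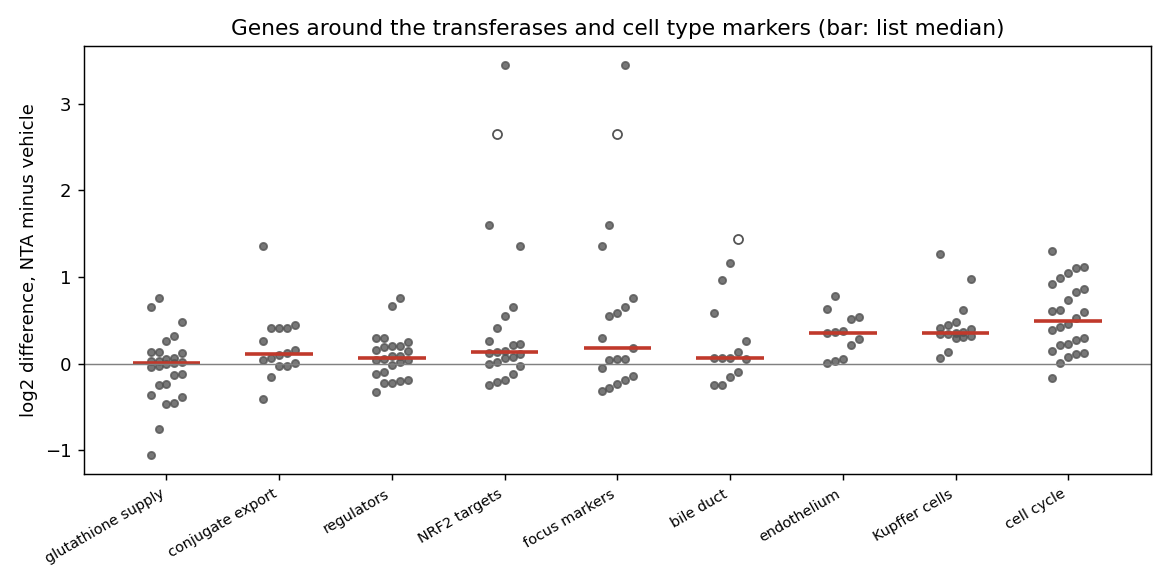
log2 difference of NTA minus vehicle livers (y axis) for each tested gene of 9 lists (x axis), by its brightest probe, with a red bar at the list median. Open circles are Akr1b10 (drawn in both lists that hold it) and Krt23, which were well above background on 0 of the 3 vehicle arrays, and the list medians run from 0.01 for glutathione supply to 0.50 for the cell cycle.

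Markers of some other cell types were brighter in NTA livers without passing the threshold. Over all genes, 48.7% were above 0, and 4.5% were higher and 3.08% lower at an unadjusted p under 0.05. Of 17 endothelial markers listed, 12 had a probe, and of these 12 were above 0 and 7 higher at an unadjusted p under 0.05. Cdh5, Tek and Flt1 were barely above 0, at 0.01, 0.03 and 0.05, with overlap between the groups. The endothelial list median signal was 0.09 to 0.23 on the NTA arrays and -0.22 to -0.06 on the vehicle arrays. Of 16 Kupffer cell and macrophage markers, 16 were above 0 and 2 higher at an unadjusted p under 0.05. Their median was 2.47 to 3.25 on the NTA arrays and 2.31 to 2.81 on the vehicle arrays, so the groups overlapped. Without vehicle replicate 3, scanned on another day, the differences of Clec4f, Cd68, C1qb and Fcgr1a were 0.01, 0.05, -0.07 and -0.21. Those of Cd163 and Marco were then 0.32 and 0.81. Of 26 cell cycle genes, 25 were above 0 and 11 higher at an unadjusted p under 0.05, with a median of -1.75 to -1.49 on the NTA arrays and -2.32 to -1.94 on the vehicle arrays. Among 11 lymphocyte markers 10, and among 10 erythroid markers 8, were above 0, with 3 higher at an unadjusted p under 0.05 in each list. None of 15 hepatocyte, 13 stellate cell or 8 exocrine pancreas markers was higher at an unadjusted p under 0.05. In these 3 lists 4, 4 and 2 were above 0, with median differences of -0.11, -0.12 and -0.23. Of 11 neutrophil markers with a probe, 7 were not above background and 4 were tested. Higher at that p were 3 of the 4, S100a8, S100a9 and Lcn2, with overlap between the groups at S100a8. The fourth, Camp, had -0.08 at its brightest probe and 1.81 at its other. Of 8 adipocyte markers 1, Fabp4, was higher at that p. Of the pancreas markers 1 was lower at an unadjusted p under 0.05: Spink1, a trypsin inhibitor, read -1.11, -1.65 and -1.62 in NTA livers, against -0.48, -0.32 and -0.14 in vehicle livers, a difference of -1.15 (SE 0.18, limma Benjamini-Hochberg adjusted p = 0.37). Of the hepatocyte and stellate cell markers 0 were lower at that p. No gene of any of these lists passed the adjusted threshold. The part of these cells in the transferase differences was not tested.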

How the data were processed

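Liver RNA of 6 rats, 3 given NTA and 3 given vehicle as the labels state, was measured on 6 arrays of Agilent design 035170 (build rn4), per the file headers. Per the submitters' processing notes, spots were read with Agilent Feature Extraction 10.7. The deposited scanner files hold a background-subtracted processed intensity for each spot, with flags, per the file headers. A table of the whole series, deposited by the authors, gives a linear ratio, which for 100.0% of probes equals the processed signal over that array's 75th percentile within 0.0001 plus 0.2%. Its column medians were 0.096, 0.1 and 0.0969 on the NTA arrays and 0.098, 0.0977 and 0.0987 on the vehicle arrays, and it is no independent check.

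From the scanner files, log2 of the processed signal minus log2 of the array's 75th percentile was computed for 61657 non-control probes. Spots flagged for non-uniformity were set missing, and a probe was kept where every array of either group (3 arrays) had it well above background. Differences of NTA from vehicle were fitted with lmFit and eBayes of limma 3.58.1 under R 4.3.3. The test was two-sided, p-values were adjusted over 38168 probes by Benjamini-Hochberg, and the fit had 4 residual and 2.57 prior degrees of freedom. Accessions matched to a RefSeq gene table (GRCr8) named 27460 probes and left 34197 unnamed here. A gene in a list stands by its brightest probe. Promoters come from RefSeq, GRCr8. Named were all member and other transferase probes, up to 4 genes of each list with the largest difference among those past the threshold or else without overlap, and the 5 genes nearest to Gstp1. Other genes named, such as Gclc, Nfe2l2, Keap1, Nr1i3, Nqo1, Hmox1, Ggt1, Afp, Abcc2, Onecut1, Aqp1, Krt7 and Krt19, were picked for their known role after their values were seen. Some list genes that this rule selects are not reported here; the counts include them. The members and lists were chosen with earlier results of these data known. The fit was tested on simulated data. Alternatives covered normexp background correction, which used the median spot signal because the files give no mean signal column, with an offset of 50, quantile normalisation, probe filters, blocks for slide, scan day and replicate number, and leaving out each rat. The number of arrays limits the precision. One accession stands for each probe, and cross-hybridisation between close paralogues was not tested.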

Additional observations from a re-analysis of the deposited data

How the results depend on the processing

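Over 10 settings other than leaving out a rat and the replicate block, 9 to 16 features passed the threshold, against 13 in the settings reported. The Gstp1 difference was 2.72 under normexp background correction, 2.75 under quantile normalisation and 2.71 under array median scaling. With scan day as a block it was 2.83, and with slide as a random block 2.70. The probe filters, the trend and robust eBayes and the authors' table of the same ratio leave the Gstp1 difference at 2.70 by construction. Leaving out 1 rat at a time gave 2.59 to 2.83 for Gstp1, 6 to 11 features, with 6 without NTA replicate 1 and 7 without NTA replicate 2, 0 to 1 member genes, 2 to 4 member probes and 0 to 1 genes of the pathway and marker lists. Taking 1 brightest probe per gene left 1 member probe past the threshold by construction. Same-numbered NTA and vehicle arrays correlated at 0.158, -0.004 and -0.085 in their deviations from the group means. Arrays of unlike number correlated at -0.161 to 0.152. So few arrays cannot show whether the replicate numbers pair the rats. The fit with the replicate block had fewer residual degrees of freedom and called 0 features, 0 member genes and 0 member probes, with the Gstp1 difference at 2.70. Of the genes in the pathway and marker lists, 1 passed among probes above background on all arrays and 1 with trend and robust eBayes, Fabp4 both times, and 1 without vehicle replicate 2, Akr1b8. Scan day as a block equals leaving out vehicle replicate 3. Of 80 single-probe results, 0 that passed the threshold changed sign. The Mgst1 difference, not past it, ran from -0.11 to 0.03 and so lay on both sides of 0. The Tubb3 call was lost in 9 settings, including each leave-out. Signal near background limits the dim genes, whose differences shrank under normexp correction. That setting adds an offset of 50 to each spot, which by construction shrinks the log2 differences of dim probes. How much of the shrinkage comes from the offset was not tested.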
